A study of Mus musculus with 29 samples.

Results

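Ncoa1 encodes nuclear receptor coactivator 1, also known as SRC-1, a protein that binds hormone-activated nuclear receptors on DNA and recruits enzymes that modify chromatin. Nuclear receptors such as PPARγ, the thyroid hormone receptors and the estrogen receptors act in fat through coactivators of this family. Subcutaneous white fat stores triglyceride, and it can hold beige adipocytes, which express the heat-producing protein UCP1 and burn fatty acids. The comparison described here sets Ncoa1 knockout females against wild-type females that both received saline, so that it reads the effect of genotype without a drug.

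The members are the 5 sample records of saline-injected female mice that have expression values, of 29 records in the series. Knockouts are 3 mice, replicates 1, 2 and 3 (library codes F21, F22 and F24), and wild types are 2 mice, replicates 1 and 3 (F2 and F4). Another wild-type record, replicate 2, is not analysed here. RNA was taken from frozen subcutaneous white adipose tissue after 7 days of intraperitoneal NaCl. Other groups used for side by side values are females given the β3-adrenergic agonist CL316,243 (CL) at 0.5 mg/kg for 7 days, with 4 wild-type and 3 knockout mice, and saline males, with 4 wild-type and 3 knockout mice. The sources used here do not give strain, age, the deleted part of Ncoa1 or whether controls were littermates. The labels number the samples but do not say how the mice were kept. The p-values therefore measure only the spread between the samples fitted, which come from all 8 groups.

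Expression is in FPKM, which divides a gene's fragments by its length and by the library total, in 2 tables that were normalized separately. F22 and F24 are in the first table, F21 and F2 in the second, and F4 has a column in each, which were averaged on the log2 scale as 1 mouse. The sources used here do not say whether both columns of F4 come from the same RNA. Differences are log2(FPKM + 1) of knockout minus wild type with their standard error (SE), and the pseudocount of 1 understates the change of low genes. The test is limma with Benjamini-Hochberg adjustment over 13174 genes and a threshold of 0.05, fitted to 27 mice of 8 groups with the table as a covariate. A gene is called separated when, within each table, every knockout column lies on the same side of every wild-type column. With 2 wild-type mice the comparison is descriptive. A fit to these 5 mice alone called 1 gene, Csn2, although 390 genes had an unadjusted p under 0.05, so the calls below rest on the spread estimated over all 8 groups.

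The 6 columns summed to between 596267 and 637682 FPKM over the genes shared by both tables, and 12054 to 12632 genes reached 1 FPKM. Absolute depth is unknown from FPKM, and a rough estimate put the relative value of 1 read at 0.917 to 1.0 within each table. Fat markers were present throughout. Adipoq, the adiponectin gene, lay between 1370.35 and 2306.0 FPKM, and Fabp4, a fatty acid carrier of adipocytes, between 11904.32 and 22227.34 FPKM. Y-linked genes were at most 0.07 FPKM in these columns and at least 2.11 FPKM in columns of males. Some columns stood apart in markers of other tissues. F22 had a summed level of 71190 FPKM over 15 skeletal muscle genes, against 6.6 to 65.57 FPKM in the other 5 columns. The second-table column of F4 had a summed 67460 FPKM over 13 milk genes, against 153 to 1092 FPKM in the others. Both columns of F4 differed by at least 1 log2 unit in 1027 genes, more than the 563 genes between F2 and F4 within the second table. Lymphocyte genes averaged 5.30 (F21), 0.61 (F22) and 1.24 (F24) on the log2(FPKM + 1) scale in knockouts, and 1.87 (F2), 4.82 (F4, first table) and 2.94 (F4, second table) in wild types. Calls were therefore repeated with either column of F4 and without each mouse, F22 included.

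**Figure D1:**
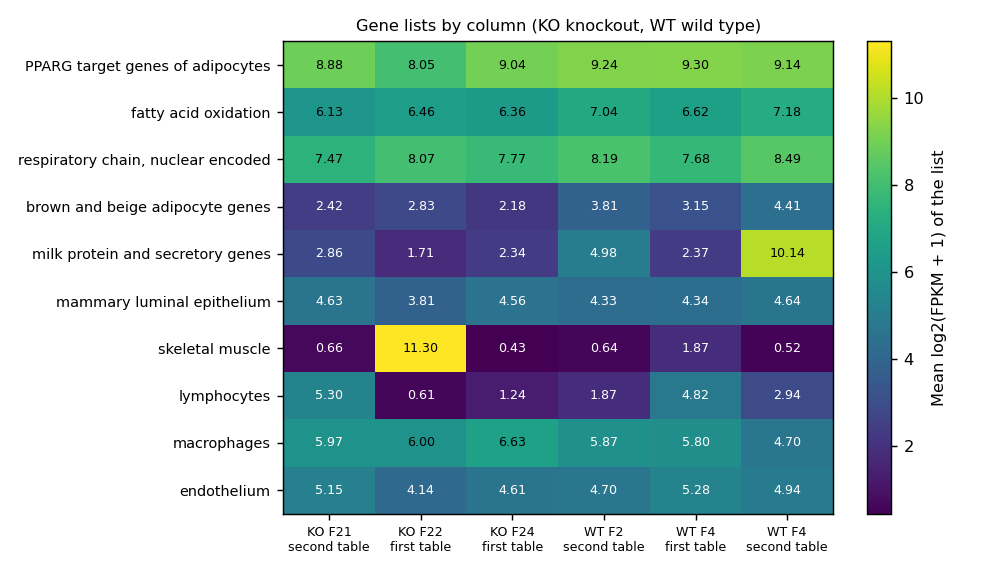
Mean log2(FPKM + 1) of 10 gene lists (rows) in the 6 columns of saline females, colour running from low (dark) to high (yellow). F22 stands out with 11.30 for skeletal muscle and the second-table column of F4 with 10.14 for milk genes, while brown and beige genes are lower in all knockout columns (2.18 to 2.83) than in all wild-type columns (3.15 to 4.41).

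The targeted gene was low in every knockout. Ncoa1 (gene ID 17977, GRCm38 chr12:4247362-4477206) measured 1.81 (F21), 2.9 (F22) and 2.33 (F24) FPKM in knockouts. In wild types it measured 7.16 (F2), 7.37 (F4, first table) and 6.12 (F4, second table) FPKM. The groups did not overlap, and across the whole series every knockout column was at or below 2.9 FPKM and every wild-type column at or above 4.93 FPKM. The difference was -1.36 ± 0.16 (SE), adjusted p = 4.9e-05 by limma. Its relatives Ncoa2 and Ncoa3, which encode the other p160 coactivators, were not called, with differences of 0.09 ± 0.19 (adjusted p = 0.91) and 0.34 ± 0.22 (adjusted p = 0.67). Of 20 coregulator genes tested, Ncoa1 alone was called, and the list's median difference, 0.08, equalled that of all genes tested, 0.08.

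Across all genes, 67 of 13174 were called, which is 0.509%. Of these, 55 were lower in knockouts (0.417% of genes tested) and 12 were higher (0.0911%). An unadjusted p under 0.05 was reached by 1218 genes. Of the 55 lower genes, 49 were separated in both tables, as were 12 of the 12 higher genes, against 7.05% of all genes separated downward and 8.43% separated upward. Separation is read from the same columns as the calls, so these shares lend the calls no independent support. The median of all genes differed between the tables, with -0.14 in the first and 0.22 in the other. Leaving out single mice moved the count of calls to between 20 (without F4) and 177 (without F24). Calls shared with the full fit were lost most often without F21 or without F4, 49 each, and least often without F24, 0. Without the muscle-rich F22, 101 genes were called and 7 of the 67 were lost.

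Of the brown and beige adipocyte genes, 4 were called, all lower in knockouts. Ucp1 (gene ID 22227, chr8:83290348-83298456), which lets protons leak across the inner mitochondrial membrane and so turns fuel into heat, measured 0.72 (F21), 0.1 (F22) and 1.0 (F24) FPKM in knockouts. In wild types it measured 137.25 (F2), 24.86 (F4, first table) and 223.9 (F4, second table) FPKM. Every knockout was far below every wild-type column. The difference was -5.76 ± 0.76 (limma adjusted p = 0.00031), and it was -4.12 within the first table and -6.68 within the second.

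The promoter of Ucp1 is shown because it is the gene of this group with the largest difference and because nuclear receptors bind DNA through copies of a 6-base half-site, AGGTCA. The window runs from 250 bases before to 50 after the start annotated by RefSeq on GRCm38.p6, and capitals mark the motif as read on the gene's strand, AGGTCA or its complement TGACCT. It lies at chr8:83290098-83290397 on the + strand, and its 1 motif begins 14 bases before the start, a position of -14.
Ucp1: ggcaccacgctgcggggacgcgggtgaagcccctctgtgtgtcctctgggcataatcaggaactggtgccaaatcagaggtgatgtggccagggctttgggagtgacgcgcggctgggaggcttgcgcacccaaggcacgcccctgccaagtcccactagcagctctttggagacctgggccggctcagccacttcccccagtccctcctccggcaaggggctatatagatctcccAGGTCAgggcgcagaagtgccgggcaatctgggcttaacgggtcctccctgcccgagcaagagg
A motif on either strand occurred in the windows of 9 of the 45 lower genes that had one (20.0%) and of 2 of 7 higher genes (28.6%). It occurred in 15.1% of the 10437 tested genes with a window and in 16.3% of all 32851 windows. A match describes these letters and shows no binding.

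Cidea (gene ID 12683), which encodes a lipid droplet protein typical of brown fat, measured 33.18 (F21), 10.2 (F22) and 21.43 (F24) FPKM in knockouts and 307.67 (F2), 122.88 (F4, first table) and 437.11 (F4, second table) FPKM in wild types. The groups were apart in both tables, with a difference of -3.47 ± 0.46 (limma adjusted p = 0.00032). Otop1 (gene ID 21906, chr5:38277404-38304217), which encodes a proton channel, measured 1.72, 1.11 and 1.72 FPKM in F21, F22 and F24, against 24.17 (F2), 10.74 (F4, first table) and 18.89 (F4, second table) FPKM. All knockouts were again lower, by -2.92 ± 0.36 (limma adjusted p = 0.00015). Dio2 (gene ID 13371, chr12:90724552-90739038), the deiodinase that makes active thyroid hormone inside the cell, measured 0.26, 0.47 and 0.36 FPKM in the same knockouts. Its wild-type values were 2.61 (F2), 2.01 (F4, first table) and 4.32 (F4, second table) FPKM. These levels are low throughout but did not overlap, and the difference was -1.54 ± 0.31 (limma adjusted p = 0.022).

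Those 4 genes were the called members of 20 brown and beige genes tested, all lower, against a background of 0.417%, and 11 of the 20 were separated downward. The list's median difference was -1.19, against 0.08 over all genes. It was -0.60 within the first table, -0.71 there without F22 and -1.36 within the second, so the sign held in each. Ucp1, Cidea and Otop1 kept their calls without each of the 5 mice in turn and with either column of F4. Dio2 did not, with a limma adjusted p of 0.27 without F21 and 0.077 with the first-table column of F4, and it also lost its call without F2 and without F4. Elovl3, which elongates fatty acids in brown fat, had 0.69 (F21), 0.5 (F22) and 0.26 (F24) FPKM against 6.35 (F2), 1.29 (F4, first table) and 15.6 (F4, second table) FPKM, and its difference of -2.03 ± 0.52 was not called (adjusted p = 0.086). The coactivator gene Ppargc1a (-0.21 ± 0.22, adjusted p = 0.80) and the β3-adrenergic receptor gene Adrb3 (-0.61 ± 0.29, adjusted p = 0.53) were not called either. Cox7a1 and Fabp3, which skeletal muscle also expresses, reached 325.95 and 353.95 FPKM in the muscle-rich F22, while F24 had 18.77 and 0.07 FPKM. Without F22, 8 of the 20 list members were called lower, against 76 of all 13174 genes in that fit. In bulk tissue, fewer beige cells and less RNA per cell cannot be told apart.

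**Figure D2:**
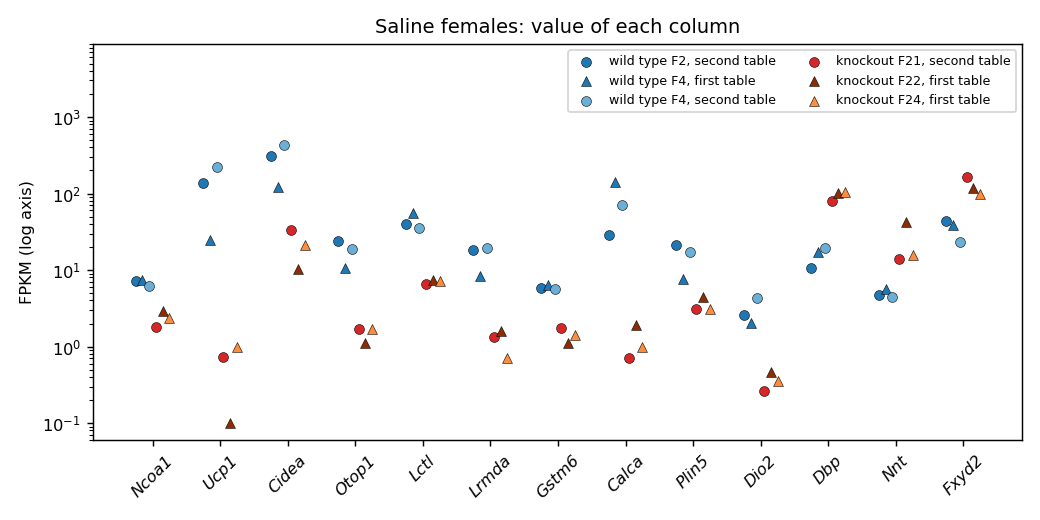
FPKM on a log axis of 13 genes in each of the 6 columns of saline females, with blue for wild type and red to orange for knockout, circles for the second table and triangles for the first. Knockout points lie below wild-type points for Ncoa1 to Dio2 and above them for Dbp, Nnt and Fxyd2, and both columns of wild-type F4 differ widely for Ucp1 (24.86 and 223.9 FPKM).

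Several other genes were lower as well. Lctl (gene ID 235435, chr9:64117123-64138118), a member of the klotho family, measured 6.57, 7.35 and 7.3 FPKM in F21, F22 and F24. In wild types it measured 40.57 (F2), 55.98 (F4, first table) and 35.23 (F4, second table) FPKM. Neither group overlapped the other, and the difference was -2.66 ± 0.30 (limma adjusted p = 4.1e-05). Lrmda (gene ID 76633, chr14:22019504-23056093), a leucine-rich repeat gene named for melanocyte differentiation, measured 1.32, 1.62 and 0.7 FPKM in knockouts against 18.37 (F2), 8.38 (F4, first table) and 19.43 (F4, second table) FPKM, a difference of -2.87 ± 0.34 (limma adjusted p = 7.1e-05). Gstm6 (gene ID 14867, chr3:107938847-107953641), a mu-class glutathione transferase, measured 1.75, 1.13 and 1.4 FPKM against 5.86, 6.43 and 5.6 FPKM, a difference of -1.50 ± 0.21 (limma adjusted p = 0.00047). Gstm genes are near copies of each other, so their reads may be shared. With Ncoa1, Ucp1, Cidea and Otop1, these 3 genes made up the 7 of 67 that stayed called in each of the 7 settings that left out a mouse or used 1 column of F4. All 7 were lower in knockouts.

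Calca (gene ID 12310, chr7:114625981-114636910), which encodes calcitonin and the sensory nerve peptide CGRP, measured 0.71, 1.93 and 0.99 FPKM in knockouts and 28.88 (F2), 139.73 (F4, first table) and 70.66 (F4, second table) FPKM in wild types. The difference was -4.74 ± 0.77 (limma adjusted p = 0.0033), but it lost its call without F21 (adjusted p = 0.14) and without F4 (adjusted p = 0.19). Plin5 (gene ID 66968, chr17:56111597-56117606), a perilipin that tethers lipid droplets to mitochondria, measured 3.11, 4.39 and 3.11 FPKM in knockouts. Wild types had 21.11 (F2), 7.57 (F4, first table) and 17.41 (F4, second table) FPKM, and the difference of -1.83 ± 0.38 (limma adjusted p = 0.027) was not called with the first-table column of F4 (adjusted p = 0.11). Plin5 also lost its call without F21, without F2 and without F4. With predicted genes left out, the last of the 12 largest separated falls of genes at 5 FPKM or more were as follows. Crabp1, a retinoic acid carrier, differed by -2.0 ± 0.44 (adjusted p = 0.043), Ntrk3, the receptor of neurotrophin 3, by -1.62 ± 0.31 (adjusted p = 0.016) and Kcnj15, a potassium channel, by -1.59 ± 0.27 (adjusted p = 0.0044). Crabp1 lost its call in 10 of 17 alternatives, Ntrk3 without F2 or F4 (adjusted p = 0.14 for both) and Kcnj15 without F21 (adjusted p = 0.14) or F2 (adjusted p = 0.12).

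Fatty acid oxidation, the breakdown of fatty acids in mitochondria, held 9 called genes of 20 tested, all lower in knockouts, against the 0.417% background. The list's median difference was -0.72, 19 of 20 members were below 0 and 13 were separated downward. Acaa2, the last thiolase step, measured 71.86 (F21), 104.06 (F22) and 86.51 (F24) FPKM in knockouts and 208.26 (F2), 115.81 (F4, first table) and 282.12 (F4, second table) FPKM in wild types. F4 in the first table lay just above the knockouts, whereas both second-table columns lay far above them. Its difference was -1.23 ± 0.21 (limma adjusted p = 0.0064). Hadha and Hadhb, the subunits of the trifunctional enzyme, differed by -1.01 ± 0.20 (adjusted p = 0.022) and -1.22 ± 0.22 (adjusted p = 0.01). Acads, the dehydrogenase of short chains, differed by -0.78 ± 0.14 (adjusted p = 0.0086). The remaining called members, named here after their values were seen, were Acadl, Acadm, Acadvl, Cpt2 and Decr1, with differences from -0.88 to -0.74.

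The size of this shift depended on the table and the mouse. The list's median was -0.24 within the first table, -0.22 there without F22, and -0.93 within the second. With the first-table column of F4 in place of the average, 0 of the 20 genes were called by limma, although the median stayed at -0.52, and with the second-table column 12 were called. None was called without F21 or without F2, 1 was called without F4, and 10 were called without F22. Milk genes moved with these columns: their mean log2(FPKM + 1) was 4.98 in F2 and 10.14 in the second-table column of F4, against 2.37 in its first-table column and 1.71 to 2.86 in knockouts. Whether this has a part in the fatty acid oxidation values was not tested. Cpt1b, the muscle form of the carnitine transferase, measured 55.03 FPKM in the muscle-rich F22 and 2.29 and 1.49 FPKM in F21 and F24.

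Promoters of called oxidation genes are shown, 1 with and 1 without the half-site, since 2 of the 7 called members with a RefSeq window on GRCm38.p6 held it. Acadm, the dehydrogenase of medium chains, lies on the - strand with its window at chr3:153944594-153944893, and its motif begins at position -249, the second base of the window. The window of Hadha, at chr5:30154931-30155230 on the - strand, holds 0 motifs and shares 228 bases with that of Hadhb, which is read from the opposite strand.
Acadm: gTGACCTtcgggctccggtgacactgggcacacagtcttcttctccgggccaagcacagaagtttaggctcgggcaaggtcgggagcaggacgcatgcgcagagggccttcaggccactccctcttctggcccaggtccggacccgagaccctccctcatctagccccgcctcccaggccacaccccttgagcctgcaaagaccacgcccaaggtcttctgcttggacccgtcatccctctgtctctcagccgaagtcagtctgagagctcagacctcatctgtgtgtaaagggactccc
Hadha: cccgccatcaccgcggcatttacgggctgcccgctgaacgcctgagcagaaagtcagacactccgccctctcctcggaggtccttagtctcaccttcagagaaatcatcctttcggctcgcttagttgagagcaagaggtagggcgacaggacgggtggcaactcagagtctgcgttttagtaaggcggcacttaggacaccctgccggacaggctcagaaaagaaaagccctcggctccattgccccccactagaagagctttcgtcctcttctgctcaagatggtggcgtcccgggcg

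**Figure D3:**
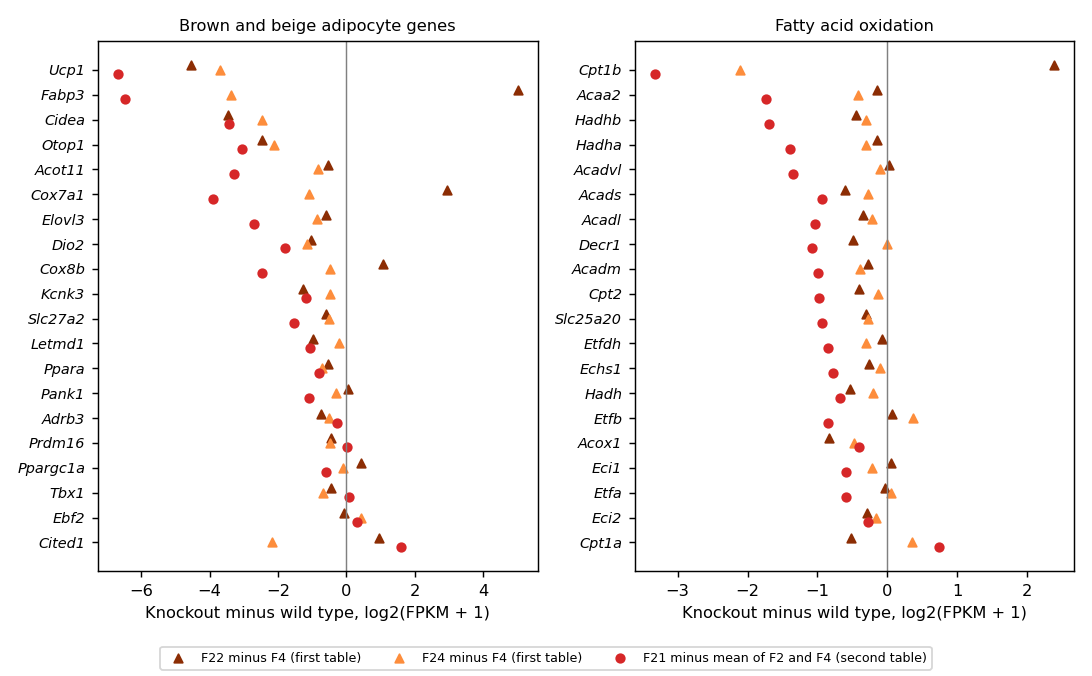
Knockout minus wild type in log2(FPKM + 1) within each table for 20 brown and beige genes (left) and 20 fatty acid oxidation genes (right), with triangles for F22 and F24 against F4 in the first table and circles for F21 against the mean of F2 and F4 in the second. Second-table points lie farther to the left for most genes (medians -1.36 and -0.93, against -0.60 and -0.24 in the first table), and F22 lies far to the right for Fabp3, Cox7a1 and Cpt1b.

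In related metabolic lists at most 1 gene each was called. Over all genes, 0.417% were called lower and 7.05% were separated downward. A count of 0 in lists this short therefore does not set them apart from all genes. Of 30 respiratory chain genes 1, the complex I subunit gene Ndufa10, was called lower (-0.78 ± 0.14, adjusted p = 0.0089). It was not separated, with 145.59 FPKM in F22 and 135.46 FPKM in the first-table column of F4, and it lost its call with that column (adjusted p = 0.28), without F21 (adjusted p = 0.35) and without F2 (adjusted p = 0.20). The median of the list was 0.23 in the first table but -0.91 in the other. The tricarboxylic acid cycle list had 0 of 16 called by limma, with medians of 0.18 and -0.95 in the same order. Without F22 the first-table medians were 0.07 for the respiratory chain and -0.07 for the tricarboxylic acid cycle. Of 16 genes of fatty acid synthesis, Acacb was called lower. It encodes the acetyl-CoA carboxylase at mitochondria, and it measured 15.96 (F21), 33.79 (F22) and 20.49 (F24) FPKM against 57.79 (F2), 31.28 (F4, first table) and 85.13 (F4, second table) FPKM. F22 lay above the first-table column of F4, so the groups overlapped there, and the difference of -1.39 ± 0.29 (limma adjusted p = 0.031) was not called with that column (adjusted p = 0.42). Acacb also lost its call without F21, without F2 and without F4. PPARγ target genes had a median of -0.52, with 10 of 17 separated downward and 0 called, and the lipolysis list had a median of -0.55 with 0 of 14 called. For PPARγ targets the median was -0.59 in the first table, -0.19 there without F22 and -0.31 in the second. For lipolysis these medians were -0.64, -0.39 and -0.32. Leptin (Lep, -0.62 ± 0.41, adjusted p = 0.67) and adiponectin (Adipoq, 0.21 ± 0.25, adjusted p = 0.83) were not called.

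Milk genes had the smallest p-values, and their wild-type values ranged widely. Csn2, which encodes β-casein, was listed at 0 in F22 and F24 and at 0.39 FPKM in F21. In wild types it measured 113.8 (F2), 0.25 (F4, first table) and 14859.87 (F4, second table) FPKM. The columns of F4 therefore fall on opposite sides of F2. Csn1s1, which encodes αS1-casein, followed the same order, with 46.1, 0.31 and 6255.39 FPKM in wild types and at most 0.3 FPKM in knockouts, and so did Lalba, which encodes α-lactalbumin, with 7.45, 0.21 and 835.57 FPKM in wild types. Lalba measured 1.15 (F21), 0.25 (F22) and 0 (F24) FPKM in knockouts, so it was not separated. The fitted differences were -6.66 ± 0.32 for Csn2, -5.80 ± 0.35 for Csn1s1 and -3.50 ± 0.38 for Lalba (limma adjusted p = 2.6e-11, 1.3e-09 and 3.3e-05). Both columns of F4 were averaged before the fit, so these SEs and p-values leave out the spread between them. Over 16 alternatives the Csn2 difference ran from -9.9 to -0.32. With the first-table column of F4 the limma adjusted p rose to 0.13 for Csn2 and 0.18 for Csn1s1, and Lalba lost its call too. Without F4 altogether, against F2 as the remaining wild type, the differences were -6.38 for Csn2, -5.20 for Csn1s1 and -2.23 for Lalba, all still called (limma adjusted p = 3.9e-08, 1.1e-06 and 0.00065). Of 9 milk genes tested, these 3 were called, against 0.417% of all genes called lower. The list means of luminal epithelium genes ran from 3.81 to 4.64 on the log2(FPKM + 1) scale in the 6 columns. Single members moved both ways, with 3 of 15 separated downward and 3 upward. Of the 15, 1, the mucin gene Muc1, was called lower (-1.37 ± 0.30, limma adjusted p = 0.042), against the same 0.417%. Basal epithelium genes had 0 of 8 called, with 7 below 0 and 3 separated downward. Muc1 measured 36.51 FPKM in the second-table column of F4 and 2.66 to 5.5 FPKM in the other columns, and it lost its call in 11 of 16 alternatives, with either single column of F4 among them (adjusted p = 0.45 and 0.063).

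Fewer genes were higher in knockouts. Dbp (gene ID 13170, chr7:45705100-45710203), a transcription factor gene driven by the clock, measured 79.63 (F21), 101.15 (F22) and 104.29 (F24) FPKM in knockouts and 10.59 (F2), 17.03 (F4, first table) and 19.59 (F4, second table) FPKM in wild types. The groups were far apart in both tables, with differences of 2.52 and 2.38, and 2.41 ± 0.35 in the fit (limma adjusted p = 0.00086). It was not called without F21 (adjusted p = 0.098). Nr1d2, which encodes the repressor REV-ERBβ, was also called higher (0.97 ± 0.22, adjusted p = 0.048), but it lost that call in 10 of 17 alternatives, among them those without F21 (adjusted p = 0.39), F2 (adjusted p = 0.37) or F4 (adjusted p = 0.12). These were 2 of 16 clock genes tested, against the 0.0911% background, and 8 of the 16 were separated upward and 1 downward. Core genes such as Clock (-0.02 ± 0.20, adjusted p = 0.99) and Arntl (-0.10 ± 0.38, adjusted p = 0.95) were not called. The sources used here do not give the hour at which tissue was taken.

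Fxyd2 (gene ID 11936), a subunit of the sodium pump, measured 165.66, 118.06 and 98.99 FPKM in F21, F22 and F24 and 43.31 (F2), 39.05 (F4, first table) and 23.52 (F4, second table) FPKM in wild types, a difference of 1.98 ± 0.33 (limma adjusted p = 0.0044) that was not called without F21 (adjusted p = 0.13) or F4 (adjusted p = 0.12). Nnt (gene ID 18115, chr13:119335527-119409257), the mitochondrial enzyme that makes NADPH from NADH, measured 14.14, 42.47 and 15.75 FPKM in knockouts against 4.77, 5.7 and 4.48 FPKM. It is higher in all knockouts, most of all in the muscle-rich F22, and the difference was 1.70 ± 0.26 (limma adjusted p = 0.0015). Ide (gene ID 15925), the insulin-degrading enzyme gene, measured 23.38, 34.77 and 29.09 FPKM against 13.55, 13.24 and 13.81 FPKM, a difference of 0.95 ± 0.14 (limma adjusted p = 0.00067). Without F4, neither Nnt (adjusted p = 0.069) nor Ide (adjusted p = 0.055) was called. Dmbt1, which encodes a secreted glycoprotein of epithelia, ranged from 19.79 to 58.57 FPKM in knockouts and from 0.03 to 12.21 FPKM in wild types (3.60 ± 0.77, limma adjusted p = 0.033), and it was not called without F21 (adjusted p = 0.28) or F4 (adjusted p = 0.58). Uroplakin 2 (Upk2, 2.16 ± 0.42), Smim3 (1.54 ± 0.29), the dehydrogenase gene Bdh2 (1.29 ± 0.22) and the splicing factor gene Nova1 (0.97 ± 0.21) completed the 10 separated genes of at least 5 FPKM. Upk2, Smim3 and Nova1 were not called without F21, without F2 or without F4, and Bdh2 was not called without F4 (adjusted p = 0.13).

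Cell type markers were mostly not called. Macrophage genes were all above 0, 15 of 15, with a median of 0.58, but 0 were called by limma. Their list means were 5.97, 6.00 and 6.63 in F21, F22 and F24, and 5.87 (F2), 5.80 (F4, first table) and 4.70 (F4, second table) on the log2(FPKM + 1) scale, so that only the second-table column of F4 stood clearly below. Adipocyte progenitor genes had a median of 0.70 with 0 of 12 called, and the median was 0.16 within the first table and 0.88 within the second. Their list means were 5.59, 5.1 and 5.81 in F21, F22 and F24. Wild types had 5.21 (F2), 5.33 (F4, first table) and 4.31 (F4, second table), so the groups overlapped. All 5 red blood cell genes tested were separated downward with 0 called, and their list mean was 9.29 in F2 against 6.97 to 7.59 in the other columns. Skeletal muscle genes had 0 of 15 called, with a median of 3.98 in the first table that became -1.37 without F22.

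The same genotype contrast in mice that share no sample with these gave an outside view. In females given CL, 1665 genes were called (12.6%), 478 lower (3.63%) and 1187 higher (9.01%), and in saline males 967 (7.34%), 548 lower (4.16%) and 419 higher (3.18%). With quantile normalization the split became 584 lower and 581 higher in CL females and 393 lower and 539 higher in saline males. Of the 55 genes lower in saline females, 40 were also lower in CL females, which is 72.7% of the 55 and 8.37% of the 478. In saline males 18 were also lower, which is 32.7% of the 55 and 3.28% of the 548. Of the 12 higher genes, 7 were also higher in CL females (58.3% of the 12, 0.59% of the 1187) and 8 in saline males (66.7% of the 12, 1.91% of the 419). The shares of the 55 compare with backgrounds of 3.63% and 4.16%, the shares of the 12 with 9.01% and 3.18%, and the shares of the longer lists with 0.417% and 0.0911%. The comparisons share an estimate of the spread, and 14 lower and 3 higher genes were called in the same direction in neither of these.

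Ucp1 differed between females and males. In CL females it measured 363 ± 155 FPKM in wild types (SD, n = 4) and 14.2 ± 3.68 FPKM in knockouts (SD, n = 3), a difference of -4.46 (limma adjusted p = 0.00017). In saline males it measured 1.36 ± 1.42 FPKM in wild types (SD, n = 4) and 4.71 ± 4.80 FPKM in knockouts (SD, n = 3), a difference of 0.60 (adjusted p = 0.60). Male wild types were thus near the level of female knockouts, and the difference between the sexes in the genotype effect was -6.36 ± 1.11 (limma adjusted p = 0.024). That call was lost without F21 (-5.59, adjusted p = 1.0), F2 (adjusted p = 0.062), F4 (adjusted p = 0.084), male knockout replicate 1 (-5.31, adjusted p = 0.27) or male wild-type replicate 2 or 3 (adjusted p = 0.059 and 0.053), and the value was -4.37 in the first table alone (adjusted p = 0.31). Cidea had the same signs in females, -1.82 with CL (adjusted p = 0.0056), and -0.20 in saline males (adjusted p = 0.79), but its difference between the sexes was not called (-3.26, adjusted p = 0.063). Over all genes, 16 had a called difference between the sexes (0.121%, all of them lower in females), 7 of which were among the 55, and 3 a called difference between saline and CL in females (0.0228%, all lower). Calca was lower in CL females by -3.27 (adjusted p = 0.0038) and near 0 in saline males, with 0.20 (adjusted p = 0.88). The oxidation list had 15 of 20 genes lower with CL and 0 of 20 in saline males by limma, with medians of -0.49 and 0.09. Over all genes 3.63% were lower with CL and 4.16% in saline males, with medians of 0.09 and -0.09. The 0 of 20 in males is thus near the share of all genes. Cpt2 was the only oxidation gene whose sex difference was called (-1.10 ± 0.22, limma adjusted p = 0.049), a call that 15 of 23 alternatives lost. Dbp was higher in saline males by 2.62 (adjusted p = 5.1e-05) and not called with CL (0.43, adjusted p = 0.32), where wild types already stood at 178 ± 23.8 FPKM (SD, n = 4).

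**Figure D4:**
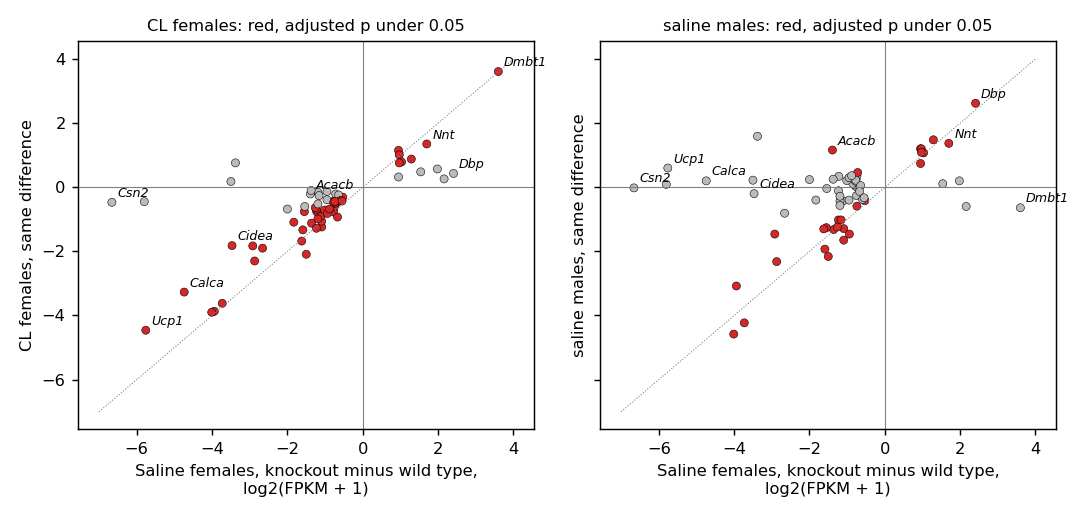
Genotype difference in log2(FPKM + 1) of the 67 genes called in saline females (horizontal) against the same difference in CL females (left) and saline males (right), red where that comparison was also called, with the dotted line marking equal values. Of the 55 lower genes 40 are red below 0 on the left and 18 on the right, while Ucp1 lies at -4.46 on the left and at 0.60 on the right.

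Genes called in the same direction in all 3 comparisons numbered 17 lower and 6 higher, of 13174 tested. Besides Ncoa1 these included Lrmda (-2.87 in saline females, -2.30 in CL females and -2.32 in saline males), Gstm6 (-1.50, -2.09 and -2.16), Otop1 (-2.92, -1.83 and -1.46), Wdfy1 (-1.09, -1.06 and -1.29), Kcnj15 (-1.59, -1.33 and -1.93) and Ntrk3 (-1.62, -1.68 and -1.30). Higher in all 3 were Nnt (1.70, 1.35 and 1.37), Ide (0.95, 1.15 and 1.20), Bdh2, Nr1d2, Nova1 and the predicted gene Gm32719. In saline females Ncoa1, Lrmda, Gstm6 and Otop1 kept their calls without each mouse and with either column of F4. The others named here lost theirs in at least 1 of these settings. In the other mice Nnt wild types had 4.12 ± 0.733 FPKM with CL and 4.18 ± 0.318 FPKM in saline males (SD, n = 4 each), and knockouts had 11.9 ± 0.215 and 10.2 ± 0.827 FPKM (SD, n = 3 each).

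Called genes were more frequent on the chromosome of Ncoa1. Within 20 Mb of it on chromosome 12, 3 of 67 tested genes were called (4.48%), Ncoa1 included, and from 20 to 50 Mb 2 of 71 (2.82%). Beyond 50 Mb there were 2 of 323 (0.619%), and on other chromosomes 58 of 12667 (0.458%). The 2 near neighbours were Pqlc3 at 12.7 Mb (-0.94 ± 0.21, limma adjusted p = 0.042) and Gm32719 at 16.0 Mb (1.03 ± 0.23, adjusted p = 0.045), and the next were Eipr1 at 24.5 Mb (-1.09 ± 0.15, adjusted p = 0.00067) and Nova1 at 42.5 Mb. Eipr1, which takes part in endosome traffic, measured 10.24, 6.52 and 8.77 FPKM in F21, F22 and F24 against 19.41 (F2), 20.71 (F4, first table) and 18.88 (F4, second table) FPKM, with no overlap. Of these neighbours, Pqlc3, Gm32719, Eipr1 and Nova1 were not called without F4, and all but Eipr1 also lost their calls without F2. Gm32719 and Nova1 further lost theirs without F21 and with the first-table column of F4. Pqlc3 lost its call with the second-table column of F4, and Nova1 without F22. In other mice the near share was 23.9% with CL, against 12.6% on other chromosomes, and 16.4% in saline males, against 7.25%. The counts in saline females are of a few genes, and the difference in share was not tested.

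**Figure D5:**
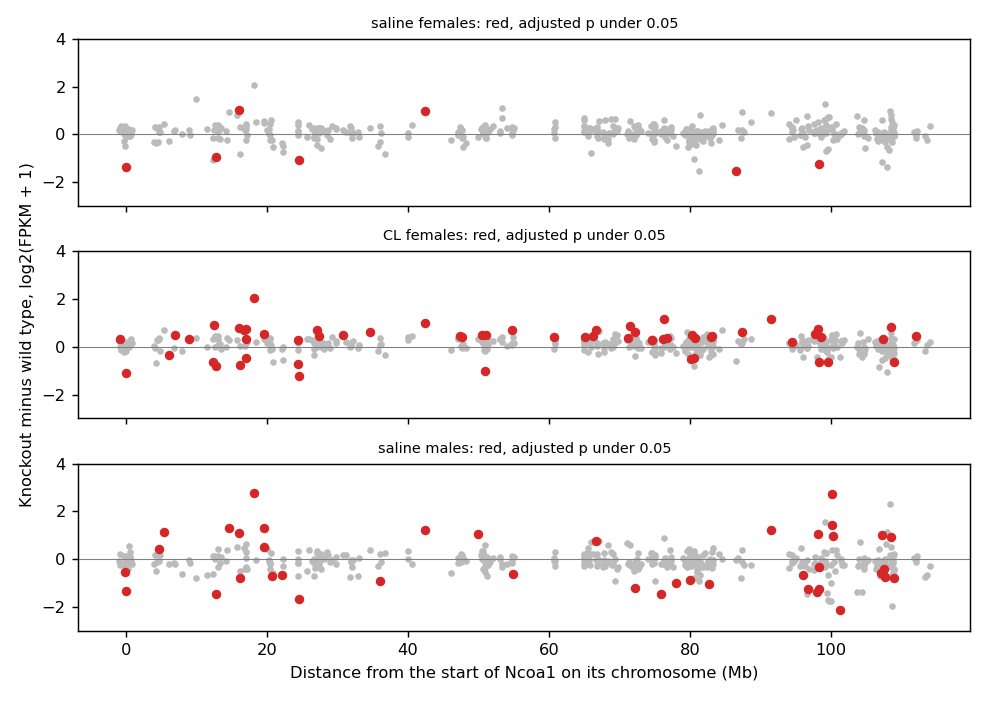
Genotype difference in log2(FPKM + 1) of tested genes on chromosome 12 against their distance in Mb from the start of Ncoa1, in saline females, CL females and saline males, with called genes in red. In saline females the 7 called genes lie at 0, 12.7, 16.0, 24.5, 42.5, 86.5 and 98.3 Mb, and all of them except Dio2 at 86.5 Mb are red in all 3 panels.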

How the data were processed

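RNA from frozen subcutaneous white fat was sequenced on DNA nanoballs, per the labels' protocols. HISAT2 2.0.4 and GRCm38/mm10 come from the submitters' processing notes. The sources used here do not name the program behind the values or its annotation. The authors deposited FPKM in 2 tables of 24 and 5 columns (18658 and 17677 genes, 17536 in both), each normalized separately. Positions come from the RefSeq annotation of GRCm38.p6, in which 17428 shared genes matched by gene ID, and 34 symbols stored as dates or bare numbers were renamed by it.

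The filter kept 13174 genes that reached 1 FPKM in 3 or more mice, and limma 3.58.1 (R 4.3.3, trend=TRUE, two-sided, Benjamini-Hochberg threshold 0.05) was run on log2(FPKM + 1). The fit used 8 group means and a table covariate (0.5 for a code in both tables). Residual degrees of freedom were 18, prior ones 2.92. It was tested on simulated data. Tables were made with Python 3.11.15 and pandas 2.3.3. FPKM gives no depth. Alternatives changed the F4 column, covariate, samples, normalization, pseudocount, filter, table, replicate block and single mice.

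Genes always named were Adipoq, Adrb3, Cidea, Dio2, Elovl3, Lep, Ncoa1 to Ncoa3, Ppargc1a and Ucp1. Others were up to 12 called, separated genes in each direction with the largest difference and at least 5 FPKM, up to 4 of each list by p, up to 5 in each direction for each difference of effects, and genes called in all 3 comparisons. The members, lists and rule were chosen with earlier results of these data known.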

Additional observations from a re-analysis of the deposited data

Results flagged for a closer look

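Some called genes had a genotype effect that differed between saline females and saline males, by limma's test of that difference (16 of 13174 genes, 0.121%, all lower in females). Among genes called in saline females the differences were -6.64 ± 0.47 for Csn2 (adjusted p = 4.6e-08), -6.36 ± 1.11 for Ucp1 (adjusted p = 0.024), -5.89 ± 0.52 for Csn1s1 (adjusted p = 1.3e-06), -3.72 ± 0.55 for Lalba (adjusted p = 0.0052) and -2.55 ± 0.43 for Acacb (adjusted p = 0.017). Csn1s1 was at most 0.15 FPKM and Lalba at most 0.41 FPKM in all male columns. Males thus had little Csn1s1 and Lalba expression to lose, and the sex differences of both genes mostly repeat the female contrast. The SEs of the milk genes, Csn2 included, leave out the spread between the columns of F4. Chpt1, which makes phosphatidylcholine, had -1.18 ± 0.22 (adjusted p = 0.043) and Cpt2 -1.10 ± 0.22 (adjusted p = 0.049). Acacb and Chpt1 were called in opposite directions, lower in saline female knockouts (-1.39 and -0.72) and higher in saline male knockouts (1.16 and 0.46). With the first-table columns of repeated codes, the adjusted p of the sex difference was 0.73 for Csn2, 0.75 for Csn1s1, 0.77 for Lalba, 0.26 for Acacb, 0.052 for Chpt1 and 0.16 for Cpt2. Without F4 the milk genes kept the call, with -6.32 for Csn2 (adjusted p = 8.7e-06), -5.19 for Csn1s1 (adjusted p = 0.00016) and -2.23 for Lalba (adjusted p = 0.04), and the others did not, with adjusted p from 0.074 for Acacb to 0.096 for Cpt2.

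The genotype effect also differed between saline and CL in females for 3 genes (0.0228%), with -6.19 ± 0.41 for Csn2 (adjusted p = 1.1e-08), -5.34 ± 0.45 for Csn1s1 (adjusted p = 5.5e-07) and -3.68 ± 0.48 for Lalba (adjusted p = 0.0007). All 3 are milk genes whose highest saline wild-type values are in the second-table column of F4. In CL females Csn1s1 was at most 2.18 FPKM and Lalba at most 0.54 FPKM. For Csn1s1 and Lalba the differences therefore mostly repeat the saline contrast. The SEs of all 3 milk genes leave out the spread between the columns of F4. With the first-table column the adjusted p was 0.74 for each. Without F4 the differences were -5.91 for Csn2 (adjusted p = 2.1e-06), -4.74 for Csn1s1 (adjusted p = 6.5e-05) and -2.41 for Lalba (adjusted p = 0.0018), all still called. In the first table alone the value was 0.15 for Csn2 and 0.25 for Csn1s1, the opposite sign, and -0.29 for Lalba, none of them called. For Ucp1 this difference was -1.30 (adjusted p = 0.93).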

How the results depend on the processing

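The saline female comparison called 67 genes, and 1 of them, Spp1, had the opposite sign in 1 of 17 alternatives, the first table alone. The count was 110 with the columns of repeated codes as separate mice, 31 with their first-table and 153 with their second-table column, 118 without a filter, 128 without the table covariate, 120 with quantile normalization, 384 in the second table alone (344 higher, 40 lower), 1 in a fit to the 5 mice alone and 20 to 177 without single mice (without F21 30, F22 101, F24 177, F2 24 and F4 20). The second table alone gave no value for the other comparisons. For CL females the count of 1665 became 220 with only the groups compared and 366 to 2207 without single mice. For saline males 967 became 202 in the first table alone, 466 with first-table columns, 1502 without the covariate, 269 with only the groups compared and 348 to 797 without single mice.

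The sex difference, 16 genes, gave 5 with a minimum of 5 FPKM, 0 in the first table alone (969 at unadjusted p under 0.05 by limma), 7 with first-table and 35 with second-table columns, 26 without a filter, 161 without the covariate, 2 with only the groups compared, 34 with quantile normalization and 2 to 39 without single mice. The saline against CL difference, 3 genes, gave 0 by limma with a minimum of 5 FPKM (475 at unadjusted p under 0.05), with separate mice (794), in the first table alone (1660), with first-table columns (882) and with a pseudocount of 0.1 (603), and it gave 8 without a filter, 1 with only the groups compared, 1 with second-table columns and 3 to 8 without single mice. The causes were not tested.

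With the replicate number as a block, 40 genes were called in saline females, 38 of them shared with the 67, 1078 in CL females and 10 for the sex difference. Deviations of same-numbered samples correlated at -0.825 (F2 and F21) and -0.0153 (F4 and F24), and with 2 pairs the numbers are taken as names only.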

Other observations

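The repeated male code, M23, differed between its columns by at least 1 log2 unit in 525 genes, fewer than the 1027 of F4. Between mice of 1 genotype within a table, F22 and F24 differed by that much in 1132 genes and F2 and F4 in 563. Between genotypes within a table the counts were 1110 for F2 and F21 and 933 for F4 and F24. Interferon-stimulated genes averaged 6.06 on the log2(FPKM + 1) scale in F24 and 4.20 to 5.32 in the other 5 columns.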
